A study of Mus musculus with 24 samples.

Results

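H3K4me3, a histone modification found at active and poised promoters, was counted over the promoters of 9 genes of antigen presentation and the interferon response: *B2m*, *H2-K1*, *H2-D1*, *Tap1*, *Psmb8*, *Psmb9*, *Irf1*, *Irf7* and *Cd40*. The members were the counted regions that overlap an annotated transcription start site (TSS) of these genes in GENCODE M1 on the mouse genome mm9. All 9 genes had a region, and none was without. *Tap1* and *Psmb9* are transcribed in opposite directions from a shared region, so the 9 genes gave 8 of the 17993 regions counted, of which 13404 overlap a TSS. The tissue was cerebral cortex of C57BL/6 mice. The Rosa H2B-FLAG line carries Rosa CAG-H2B-FLAG, opened by Vasa-Cre, and has FLAG-tagged histone H2B in nearly all cells. The Camk2a H2B-FLAG line carries Rosa26 CAG-floxed-pA-H2B-FLAG with CaMKCreERT2 and has the tag in Camk2a-positive neurons after tamoxifen, given at 8 weeks of age at 1 mg per day for 5 days. Both lines carry the tag at the Rosa26 locus, and the text used here gives no tamoxifen for the Rosa line, so line, Cre driver and tamoxifen cannot be told apart. Each lysate came from 2 animals. From each line, 3 libraries were made by ordinary (single) ChIP-Seq with anti-H3K4me3 antibody, and 3 by tandem ChIP-Seq (tChIP-Seq), in which chromatin was precipitated with anti-FLAG antibody and again with anti-H3K4me3 antibody.

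MHC class I molecules display peptides from inside the cell to cytotoxic T cells. *H2-K1* and *H2-D1* encode class I heavy chains and *B2m* the light chain, beta-2 microglobulin. *Psmb8* and *Psmb9* encode catalytic subunits of the immunoproteasome, which cuts proteins into peptides, and *Tap1* encodes a subunit of the transporter that carries peptides into the endoplasmic reticulum. Interferons raise the transcription of these genes, partly through the transcription factor IRF1, while IRF7 drives type I interferon genes. CD40 is a receptor of the TNF receptor family on antigen-presenting cells. In resting brain, neurons are known for low class I expression, and endothelial cells and microglia for higher expression.

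Library totals over the 17993 regions ranged from 6316125 to 8644574 counts in Rosa single ChIP-Seq, from 1457261 to 1828371 in Rosa tChIP-Seq, from 4063200 to 4233144 in Camk2a single ChIP-Seq and from 2709729 to 3049130 in Camk2a tChIP-Seq. Chi-square per degree of freedom between libraries of a group lay between 1.03 and 1.09, so the spread between libraries was close to counting error and no library was a copy of another. Nothing in the labels says that lysates were prepared on separate days. The p-values therefore measure only the spread between these lysates.

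The regions reached from a short distance upstream of each gene's 5′ end into the gene. The *B2m* region, chr2:121972909-121975072, was 2164 bp wide and the *Irf1* region, chr11:53582930-53585111, was 2182 bp. *H2-K1* (chr17:34136062-34137742, 1681 bp) and *H2-D1* (chr17:35399445-35401322, 1878 bp) lie on either side of the class II genes in the MHC locus. The shared *Tap1* and *Psmb9* region (chr17:34323503-34325613, 2111 bp) and the *Psmb8* region (chr17:34334112-34336046, 1935 bp) lie between them. *Irf7* had a region of 1368 bp (chr7:148451256-148452623). *Cd40* had the narrowest, 716 bp (chr2:164880927-164881642), and 3.52% of regions overlapping a TSS were narrower.

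**Figure D1:**
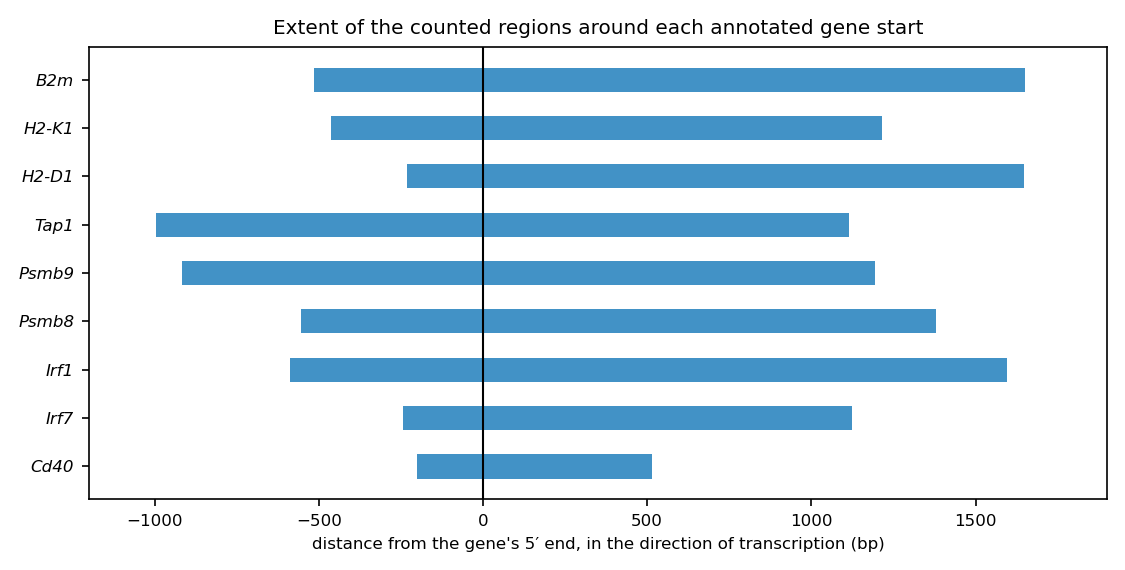
Extent of the counted region around each gene, as distance in bp from the annotated 5′ end of the gene (vertical line) in the direction of transcription, from left to right. Bars extend further downstream than upstream, and the *Tap1* and *Psmb9* bars are the same 2111 bp region seen from both genes.

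The upstream sequences of the class I genes and of *Irf1* are shown because interferon and NF-kappa B motifs are textbook inputs of such promoters. The sequences lie inside the regions where the mark was counted, and not every motif was found in each. RefSeq (GRCm38.p6) held a promoter for 8 of the 9 members, all but *Cd40*. The 250 bases before each RefSeq start matched mm9 exactly and lay wholly inside the counted region. Capitals mark matches to 5 motifs, searched on both strands. They were the interferon-stimulated response element, ISRE, in a long form (GAAA, 2 free bases, GAAA) and a short form (GAA, 2 free bases, GAAA), and the gamma-activated site, GAS (TTC, 3 free bases, GAA). The others were kappa B (GGG, 2 free bases, TT, 1 free base, CC) and TGACG, the core of a cyclic AMP response element. No marked matches overlapped. The forms searched were chosen with these sequences in view. All are written 5′ to 3′ on the gene's strand.
*B2m*, chr2:121973173-121973422, plus strand: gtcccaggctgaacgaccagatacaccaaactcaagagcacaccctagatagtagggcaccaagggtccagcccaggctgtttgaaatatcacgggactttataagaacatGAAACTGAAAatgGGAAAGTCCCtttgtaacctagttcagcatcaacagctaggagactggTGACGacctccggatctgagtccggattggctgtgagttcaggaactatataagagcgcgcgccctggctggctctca
*H2-K1*, chr17:34137293-34137542, minus strand: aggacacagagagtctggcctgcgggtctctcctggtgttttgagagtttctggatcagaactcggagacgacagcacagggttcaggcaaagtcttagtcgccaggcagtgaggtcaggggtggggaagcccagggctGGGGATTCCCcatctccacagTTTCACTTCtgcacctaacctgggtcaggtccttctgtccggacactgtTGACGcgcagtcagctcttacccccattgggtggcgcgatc
*H2-D1*, chr17:35399789-35400038, plus strand: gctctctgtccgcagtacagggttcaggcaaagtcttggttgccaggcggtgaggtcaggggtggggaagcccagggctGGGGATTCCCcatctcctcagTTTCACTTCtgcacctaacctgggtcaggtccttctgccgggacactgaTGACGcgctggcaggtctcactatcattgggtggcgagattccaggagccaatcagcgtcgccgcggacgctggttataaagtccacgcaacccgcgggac
*Irf1*, chr11:53583266-53583515, plus strand: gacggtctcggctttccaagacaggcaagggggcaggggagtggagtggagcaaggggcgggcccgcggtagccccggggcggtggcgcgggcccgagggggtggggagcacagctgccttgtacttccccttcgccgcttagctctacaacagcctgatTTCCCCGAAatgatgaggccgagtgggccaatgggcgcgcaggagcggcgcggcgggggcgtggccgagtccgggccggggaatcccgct
*Psmb9* to *Tap1*, the 225 bases between their starts, chr17:34324276-34324500, plus strand, read from mm9: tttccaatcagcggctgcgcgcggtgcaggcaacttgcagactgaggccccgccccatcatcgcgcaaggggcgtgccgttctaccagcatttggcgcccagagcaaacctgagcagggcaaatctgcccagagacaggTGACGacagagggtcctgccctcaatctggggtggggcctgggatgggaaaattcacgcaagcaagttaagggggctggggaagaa

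*B2m* held an ISRE of the long form 139 to 130 bases before its start and a kappa B match 126 to 117 bases before it. *H2-K1* and *H2-D1* held kappa B, short ISRE and TGACG matches in the same order and at the same spacing, beginning 111, 90 and 41 bases before the start in *H2-K1* and 171, 150 and 101 bases before it in *H2-D1*. The *H2-D1* window lies inside a GENCODE transcript of that gene that starts further upstream. The *Psmb8* window, and the bases printed between *Psmb9* and *Tap1*, also lie downstream of the GENCODE 5′ ends of *Psmb8* and *Psmb9*. TGACG was also present between *Psmb9* and *Tap1*, and in the *Irf7* window 91 bases before its start. Neither of these sequences held an ISRE, GAS or kappa B match. A GAS match lay 90 bases before the *Irf1* start and 97 bases before that of *Psmb8*. No match to the ISRE or kappa B forms searched was found in the *Irf1* or *Psmb8* window. Other forms of kappa B were not searched. The stretch ggggaatccc near the end of the *Irf1* window lacks TT at the place set by the searched form, so it is unmarked. In the same 250-base windows of 32851 RefSeq promoters, the long ISRE was found in 2.98%, the short form in 6.31%, GAS in 7.02%, kappa B in 4.11% and TGACG in 17.8%. These matches are letters only and say nothing of binding. Over the whole counted region, CpG frequency (observed over expected) was 0.790 at *H2-K1*, 0.696 at *H2-D1* and 0.690 at *Irf1*, but only 0.369 at *Irf7* and 0.361 at *Cd40*. Among regions overlapping a TSS, 8.94% had a lower ratio than *Irf7* and 8.19% a lower ratio than *Cd40*. By exact match, every 80-base word of 6 of the 8 regions occurred once in mm9. So did 95.4% of those of *H2-K1* and 96.7% of those of *H2-D1*, class I genes that resemble one another. Placement of reads with mismatches was not tested.

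The question of the first comparison was how H3K4me3 in chromatin of Camk2a-positive neurons differs from that in chromatin of all cell types. In tChIP-Seq, 7 of the 8 regions were called lower in Camk2a than in Rosa H2B-FLAG mice by the quasi-likelihood test of edgeR (Benjamini-Hochberg adjusted p under 0.01 over all regions), and none was called higher. Over all regions 14.6% were called lower and 17% higher in this comparison, 31.6% in all (18.4% lower and 14.3% higher when scaled by library totals alone). The region that was not called was that of *H2-D1*. The Wald test of DESeq2 called 4 of the 8 lower, beside 10.6% of all regions, and lost *H2-K1* (adjusted p = 0.0199), *Irf7* (0.0104) and *Cd40* (0.0215). The median log2 fold change of the 8 regions was -0.58, beside -0.00 over all regions. The 3 libraries of each line did not overlap in 7 of the 8 regions, and 23.6% of all regions were lower without overlap. These are bulk samples, so fewer tagged cells of a type and less of the mark per cell cannot be told apart. The paper places the share of tagged cells in the brain at about its technical limit. Carry-over of chromatin from untagged cells into tChIP-Seq was not tested. Levels below are CPM, read counts divided by library totals scaled with TMM over the 12 libraries, with SD over 3 libraries.

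**Figure D2:**
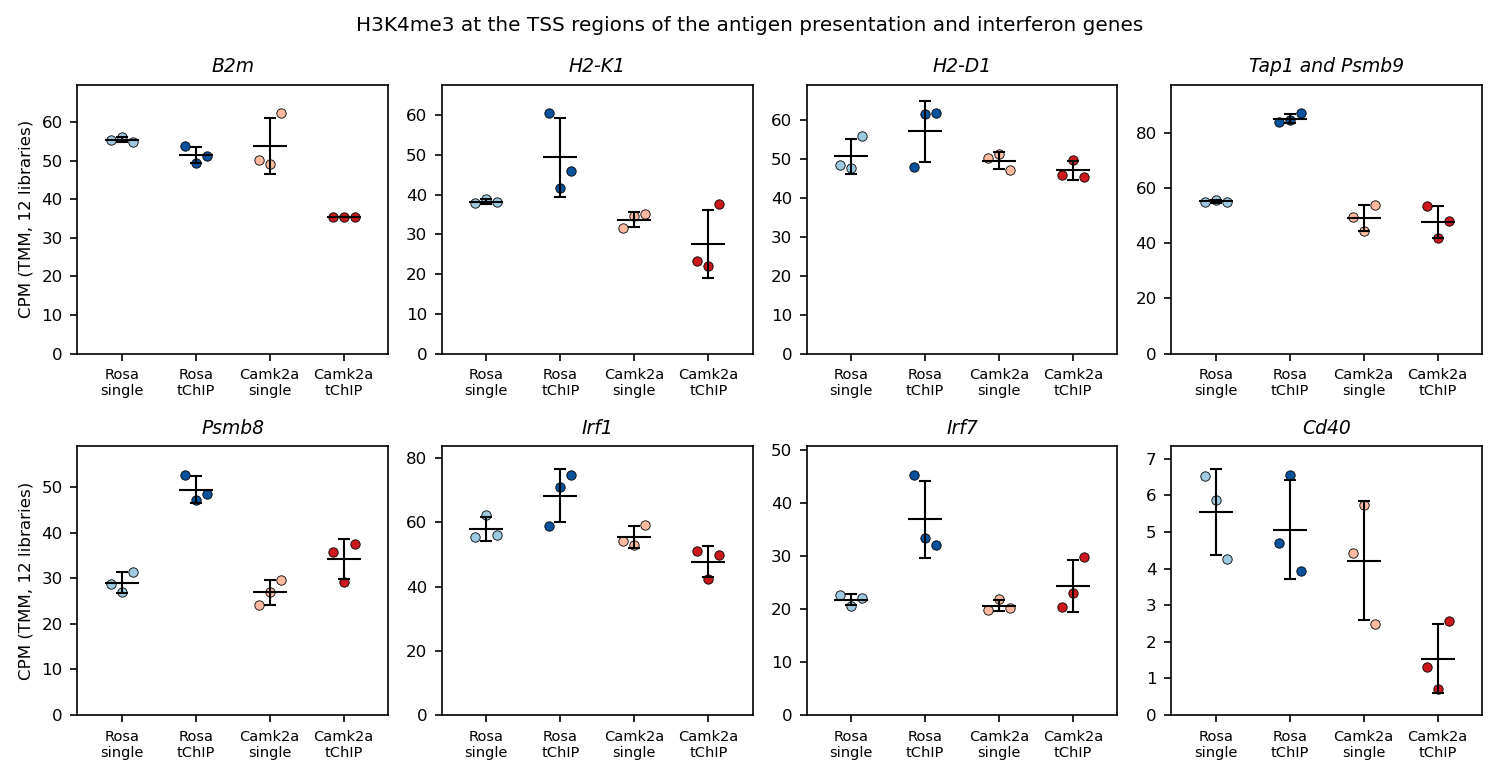
H3K4me3 in CPM (vertical axis, from 0) at the 8 regions by group (horizontal axis), with a point for each library, and the mean (long bar) and SD (whiskers) of 3 libraries. Camk2a tChIP points lie below all Rosa tChIP points in every panel but that of *H2-D1*, while the single ChIP points of both lines lie close together.

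Among the heavy chains, *H2-K1* stood at 60.5, 41.7 and 45.9 CPM in the 3 Rosa tChIP libraries and at 23.3, 22.0 and 37.6 CPM in the 3 Camk2a tChIP libraries. The highest Camk2a library was still below the lowest Rosa library, but both groups were wide, with SDs of 20% of the mean in Rosa and 31.3% in Camk2a. *H2-K1* was 1.81-fold lower in Camk2a (log2 fold change -0.86 ± 0.146 SE, adjusted p = 7.37e-07). *H2-D1* stood at 48.0, 61.4 and 61.7 CPM in Rosa and 45.9, 49.8 and 45.3 CPM in Camk2a tChIP-Seq. The groups overlapped, since Rosa replicate 1 lay below Camk2a replicate 2. Its log2 fold change was -0.26 ± 0.114 (adjusted p = 0.0610), with a 95% interval from -0.48 to -0.04.

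The heavy chains also differed in how steady their ratio was. In raw counts, *H2-K1* reached between 0.627 and 0.817 of *H2-D1* in the 6 single ChIP libraries. Among the Rosa tChIP libraries the ratio was 1.26 in replicate 1 and 0.680 and 0.745 in the others. In Camk2a tChIP-Seq it was 0.507, 0.442 and 0.829. Rosa tChIP replicate 1 was the library in which *H2-K1* was high and *H2-D1* low, and the *H2-K1* call by edgeR held without it. Calls that rested on this library are named with their values.

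*B2m*, the light chain shared by all class I molecules, was even within both tChIP groups, but less so in Camk2a single ChIP-Seq (SD 13.6% of the mean). Its level was 53.7, 49.5 and 51.2 CPM in Rosa tChIP-Seq and 35.4 CPM in each of the 3 Camk2a tChIP libraries. The latter agreed more closely (SD 0.112% of the mean) than the counting error of single libraries of this depth allows (9.97%), so this SD understates the error. *B2m* was 1.45-fold lower in Camk2a (log2 fold change -0.54 ± 0.121, adjusted p = 1.53e-04).

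The genes that supply peptides differed by similar amounts. The shared region of *Tap1* and *Psmb9* stood at 84.0, 84.7 and 87.3 CPM in Rosa and 53.5, 41.9 and 48.3 CPM in Camk2a tChIP-Seq. Every Rosa library lay far above every Camk2a library, and the adjusted p was the lowest of the 8 regions. The log2 fold change was -0.82 ± 0.101 (adjusted p = 6.91e-11), or 1.77-fold lower, and counts cannot be divided between the 2 genes. *Psmb8* stood at 52.7, 47.1 and 48.5 CPM in Rosa and 35.8, 29.2 and 37.6 CPM in Camk2a. It was 1.44-fold lower in Camk2a (log2 fold change -0.53 ± 0.126, adjusted p = 3.34e-04).

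Both interferon regulatory factors were lower in Camk2a tChIP-Seq. *Irf1* stood at 59.0, 71.0 and 74.8 CPM in Rosa and 51.2, 42.2 and 49.7 CPM in Camk2a (log2 fold change -0.49 ± 0.109, adjusted p = 1.09e-04). *Irf7* stood at 45.4, 33.4 and 32.1 CPM in Rosa and 20.3, 23.1 and 29.8 CPM in Camk2a (log2 fold change -0.62 ± 0.154, adjusted p = 5.54e-04). Rosa replicate 1 was high for *Irf7* as it was for *H2-K1*, and without that library the *Irf7* call was lost (log2 fold change -0.43, adjusted p = 0.0556).

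*Cd40* had the fewest counts, 211 over all 12 libraries. It stood at 4.70, 6.56 and 3.94 CPM in Rosa and 1.31, 0.722 and 2.58 CPM in Camk2a tChIP-Seq. These levels rest on 26 and 13 counts in all, and the log2 fold change of -1.70 ± 0.476 (adjusted p = 0.00237) had a 95% interval from -2.63 to -0.76. The call was lost without Camk2a tChIP replicate 2 (adjusted p = 0.0235) or Rosa tChIP replicate 2 (adjusted p = 0.0294).

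In single ChIP-Seq, where chromatin came from the whole cortex of both lines, none of the 8 regions was called, beside 2.15% of all regions in either direction (0.928% higher, 1.22% lower, or 1.08% and 0.317% with library totals alone). The 8 log2 fold changes ran from -0.40 to -0.02, all below 0, and the lowest adjusted p was 0.159, for *Tap1* and *Psmb9*. At an unadjusted p under 0.05 there were 2 regions, *H2-K1* and *Tap1* and *Psmb9*, beside 22.0% of all regions. The Wald test of DESeq2 called none of the 8, and 0.189% of all regions. *H2-K1* stood at 37.8, 38.9 and 38.1 CPM in Rosa and at 31.5, 34.6 and 35.1 CPM in Camk2a. *Tap1* and *Psmb9* stood at 55.0, 55.9 and 55.0 CPM in Rosa and at 49.5, 44.6 and 54.1 CPM in Camk2a. In these 2 regions the lines did not overlap, as in 12.7% of all regions lower without overlap, and the 95% intervals of the log2 fold changes ran from -0.36 to -0.01 and from -0.31 to -0.02. At the other 5 regions besides *Cd40* the means lay closer together. *H2-D1* stood at 50.6 ± 4.48 CPM in Rosa and 49.5 ± 2.18 CPM in Camk2a (95% interval of the log2 fold change -0.17 to 0.13), and *Irf7* at 21.8 ± 1.05 and 20.7 ± 1.10 CPM (-0.29 to 0.16).

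**Figure D3:**
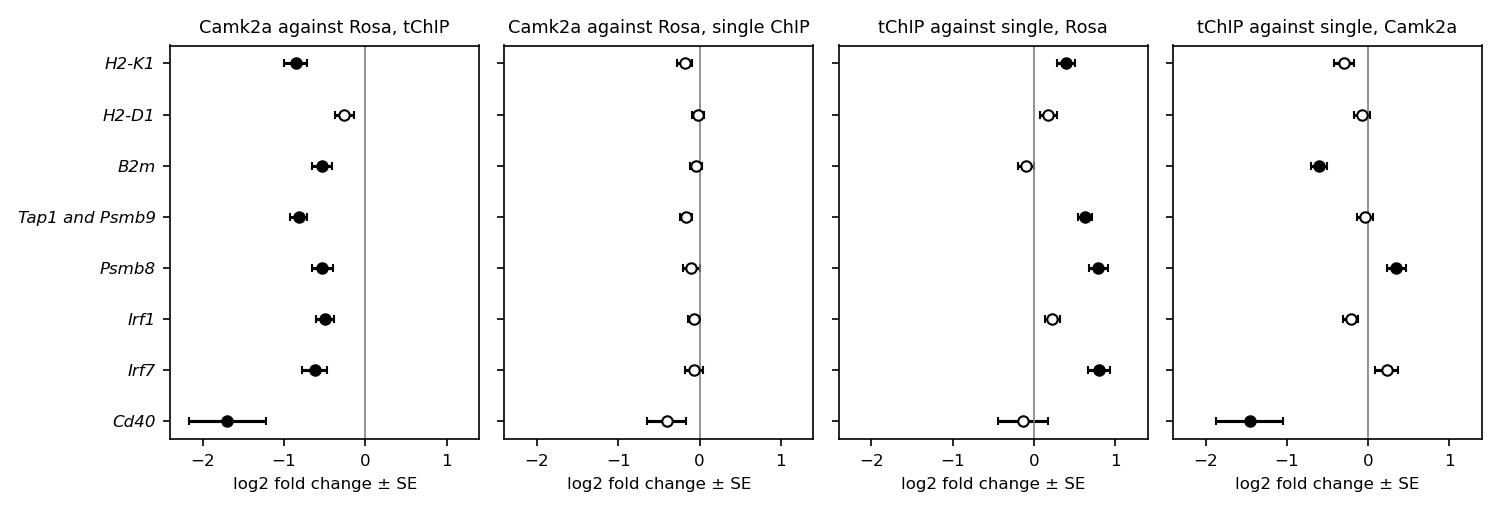
Log2 fold change (horizontal axis) with SE at each region (vertical axis) in 4 comparisons; filled points were called by edgeR at an adjusted p under 0.01, and open points were not. In tChIP-Seq all points but that of *H2-D1* are filled and lie left of 0, in single ChIP-Seq all are open, and between the assays 4 points are filled right of 0 in Rosa, while in Camk2a *B2m* and *Cd40* are filled left of 0 and *Psmb8* right of it.

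Within the Rosa line, where the tag is in nearly all cells, 4 regions were called higher and none lower after tandem than after single precipitation, beside 24.7% and 22.5% of all regions (47.2% in all). With library totals alone, 5 of the 8 were higher, beside 29.4% of all regions higher and 14.0% lower. *Irf7* rose from 21.8 ± 1.05 to 37.0 ± 7.31 CPM, 1.74-fold (log2 fold change 0.80 ± 0.133, adjusted p = 1.12e-08). *Psmb8* rose from 29.1 ± 2.26 to 49.5 ± 2.90 CPM (0.79 ± 0.116, adjusted p = 7.17e-11). *Tap1* and *Psmb9* rose from 55.3 ± 0.501 to 85.3 ± 1.72 CPM (0.63 ± 0.0865, adjusted p = 3.35e-12). Both peptide-supply regions were thus among those that rose. *H2-K1* rose by less, 0.39 ± 0.109 (adjusted p = 8.32e-04), and without Rosa tChIP replicate 1 its call was lost (0.20, adjusted p = 0.227). *B2m* was at 55.5 ± 0.652 CPM in single and 51.5 ± 2.14 CPM in tChIP-Seq (log2 fold change -0.10, adjusted p = 0.424), and *H2-D1* (0.18, adjusted p = 0.114), *Irf1* (0.23, adjusted p = 0.0253) and *Cd40* (-0.13, adjusted p = 0.734) were not called either. *Irf1* was called without Rosa tChIP replicate 1 (0.33, adjusted p = 0.00683) and without Rosa single replicate 2 (0.29, adjusted p = 0.00778).

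Within the Camk2a line, 2 regions were called lower and 1 higher in tChIP-Seq, beside 22.6% and 25.3% of all regions (47.9% in all). *B2m* fell from 53.9 ± 7.31 to 35.4 ± 0.0396 CPM (log2 fold change -0.60 ± 0.102, adjusted p = 8.79e-08). *Cd40* fell from 4.22 ± 1.63 to 1.54 ± 0.949 CPM (-1.45 ± 0.413, adjusted p = 0.00137), with overlapping libraries. Its call was lost without Camk2a tChIP replicate 1 (adjusted p = 0.0112), without Camk2a tChIP replicate 2 (adjusted p = 0.0265) or without Camk2a single replicate 2 (adjusted p = 0.0284). *Psmb8* rose from 26.9 ± 2.77 to 34.2 ± 4.39 CPM (0.35 ± 0.120, adjusted p = 0.00937), again with overlapping libraries. That call was lost in 4 of the 6 fits that left out a library, with adjusted p from 0.0228 to 0.0782 (without single replicate 1 or 2, or tChIP replicate 1 or 3). *Tap1* and *Psmb9* stood at 49.4 ± 4.73 CPM in single and 47.9 ± 5.82 CPM in tChIP-Seq (log2 fold change -0.04, 95% interval -0.23 to 0.15, adjusted p = 0.747), and the interval for *H2-D1* was -0.26 to 0.11 (adjusted p = 0.498). *H2-K1* (-0.30, adjusted p = 0.0300), *Irf1* (-0.21, adjusted p = 0.0398) and *Irf7* (0.23, adjusted p = 0.153) were not called. *H2-K1* was called without Camk2a tChIP replicate 3 (-0.57, adjusted p = 3.01e-04). The comparisons with single ChIP-Seq share libraries with those between the lines, so they are not separate evidence.

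The line difference in tChIP-Seq was set against that in single ChIP-Seq by the interaction of line and assay over 12 libraries. It was called, in the direction of a larger decrease in tChIP-Seq, at 4 of the 8 regions, beside 13.2% of all regions in that direction, 13.7% in the other and 26.9% in all. With library totals alone, 6 of the 8 were called, beside 16.5% and 10.5% of all regions. The 4 called with TMM scaling were *H2-K1* (-0.68 ± 0.165, adjusted p = 2.66e-04), *Tap1* and *Psmb9* (-0.66 ± 0.127, adjusted p = 2.75e-06), *B2m* (-0.50 ± 0.145, adjusted p = 0.00287) and *Irf1* (-0.43 ± 0.131, adjusted p = 0.00465). The other interaction estimates were -0.24 for *H2-D1* (adjusted p = 0.168), -0.44 for *Psmb8* (adjusted p = 0.0264), -0.56 for *Irf7* (adjusted p = 0.0123) and -1.31 for *Cd40* (adjusted p = 0.0437). For these genes a difference of the line effect between the assays was not shown. In counts simulated at this depth, 200 of 17993 regions were changed. A log2 change of 0.5 was then recovered by the interaction test in 38.5% of them. Far more regions were called in the data, which makes the adjusted p less strict, so this share does not give the recovery here.

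Per kilobase of region, the 8 promoters had similar levels in Rosa single ChIP-Seq except for 3 genes. The order of levels was *H2-D1* (27.0 ± 2.39 CPM per kb), *Irf1* (26.5 ± 1.72), *Tap1* and *Psmb9* (26.2 ± 0.238), *B2m* (25.6 ± 0.301), *H2-K1* (22.8 ± 0.330), *Irf7* (15.9 ± 0.767), *Psmb8* (15.0 ± 1.17) and *Cd40* (7.74 ± 1.63). *H2-D1*, *Irf1* and the *Tap1* and *Psmb9* region did not differ beyond their spread, nor did *Irf7* and *Psmb8*. In Rosa tChIP-Seq the order was led by *Tap1* and *Psmb9* (40.4 ± 0.813 CPM per kb), and in Camk2a tChIP-Seq by *H2-D1* (25.0 ± 1.30), with *Tap1* and *Psmb9* at 22.7 ± 2.76.

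Other genes of the same pathways were read from lists written for this tissue. The shares of all regions called between the lines in tChIP-Seq, 14.6% lower and 17% higher, stand beside each list below. For class I processing and presentation, 20 of 24 genes had a region, and of their 22 regions 6 were called lower in Camk2a tChIP-Seq and none higher (median log2 fold change -0.19). *Mr1*, a class I-like molecule that presents vitamin metabolites, fell from 14.4 ± 2.39 CPM in Rosa to 5.36 ± 0.962 CPM in Camk2a (-1.41 ± 0.265, adjusted p = 6.26e-06). *H2-Q4*, a non-classical class I gene, fell from 37.4 ± 5.75 to 17.3 ± 5.04 CPM (-1.11 ± 0.166, adjusted p = 2.40e-08). *H2-M3* (-0.57, adjusted p = 9.54e-04) and *Tapbpl* (-0.52, adjusted p = 9.42e-04), a relative of tapasin that edits bound peptides, were also called, the latter in a region shared with *Vamp1*. None of the 22 regions was called in single ChIP-Seq. *Psmb10*, a further immunoproteasome subunit on this list, was not called (-0.19 ± 0.0925, adjusted p = 0.104) and is named for its role. Of 14 regions of the other subunits of the 20S proteasome, only that of *Psma7*, which is shared with *Ss18l1*, was called lower (-0.19, adjusted p = 0.00863), and the median was -0.01. The difference between these genes and those of the immunoproteasome was not tested. Between the assays in Rosa, 7 of these 14 regions were called lower in tChIP-Seq and none higher, whereas *Psmb8* and the region of *Tap1* and *Psmb9* were called higher and *Psmb10* was not called (0.05, adjusted p = 0.572). Over all regions, 22.5% were called lower and 24.7% higher between these assays in Rosa.

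Of 45 interferon-stimulated genes, 33 had a region, and 24 of their 34 regions were called lower in Camk2a tChIP-Seq and none higher (median log2 fold change -0.996). The antiviral gene *Ifitm3* fell from 19.6 ± 2.01 to 1.82 ± 1.31 CPM (-3.35 ± 0.315, adjusted p = 1.50e-15). *Ifit1*, which binds viral RNA, fell from 39.8 ± 6.26 to 4.82 ± 1.34 CPM (-3.04 ± 0.210, adjusted p = 4.45e-22), *Oasl1* by 2.83 and *Trim25* by 2.81 on the log2 scale. Between the assays in Rosa, 23 of the 34 regions were called higher in tChIP-Seq and 1 lower, beside 24.7% and 22.5% of all regions. In single ChIP-Seq only *Ifit1* was called between the lines (-0.58, adjusted p = 9.35e-04). The median of the 8 regions described above, -0.58, lay between that of these regions and that of the class I list. *Ifit1* and *H2-Q4* have close relatives whose reads could be split among copies, and the regions of *Ifit1*, *Oasl1* and *H2-Q4* overlap a TSS of another annotated gene.

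Among the other IRF family genes and regulators, 4 of 9 regions were called lower in Camk2a tChIP-Seq and none higher. *Irf9*, the DNA-binding subunit of the factor that type I interferons activate, fell from 33.3 ± 6.13 to 7.65 ± 1.04 CPM (-2.13 ± 0.198, adjusted p = 1.02e-15), and *Irf5* fell from 43.9 ± 4.65 to 20.1 ± 3.39 CPM (-1.11 ± 0.149, adjusted p = 1.27e-09). *Irf4* (-0.96) and *Irf3* (-0.77), the latter in a region shared with *Bcl2l12*, were called too. In single ChIP-Seq 3 of the 9 regions were called lower, those of *Irf2*, *Irf2bp2* and *Irf2bpl*, named here after their values were seen, and none of them was called in tChIP-Seq. Over all regions, 1.22% were called lower in single ChIP-Seq. For interferon receptors and JAK-STAT signalling, 5 of 15 regions were called lower and none higher. They included the inhibitor *Socs1* (112.8 ± 11.0 to 64.2 ± 2.80 CPM, -0.79, adjusted p = 1.53e-12). For CD40 and TNF receptor signalling, 7 of 15 regions were called lower and 2 higher. The receptor *Tnfrsf1a* fell from 51.7 ± 5.05 to 9.64 ± 0.939 CPM (-2.41 ± 0.166, adjusted p = 4.05e-22) and *Nfkb2* from 88.2 ± 4.23 to 32.0 ± 4.89 CPM (-1.46 ± 0.110, adjusted p = 5.997e-20). For class II presentation, where *Cd74*, *Ciita*, *H2-Aa* and 7 others of 12 genes had no region, *Ifi30* was called lower (-0.63, adjusted p = 0.00762) and *H2-Ab1* was not (-0.68, adjusted p = 0.0282).

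**Figure D4:**
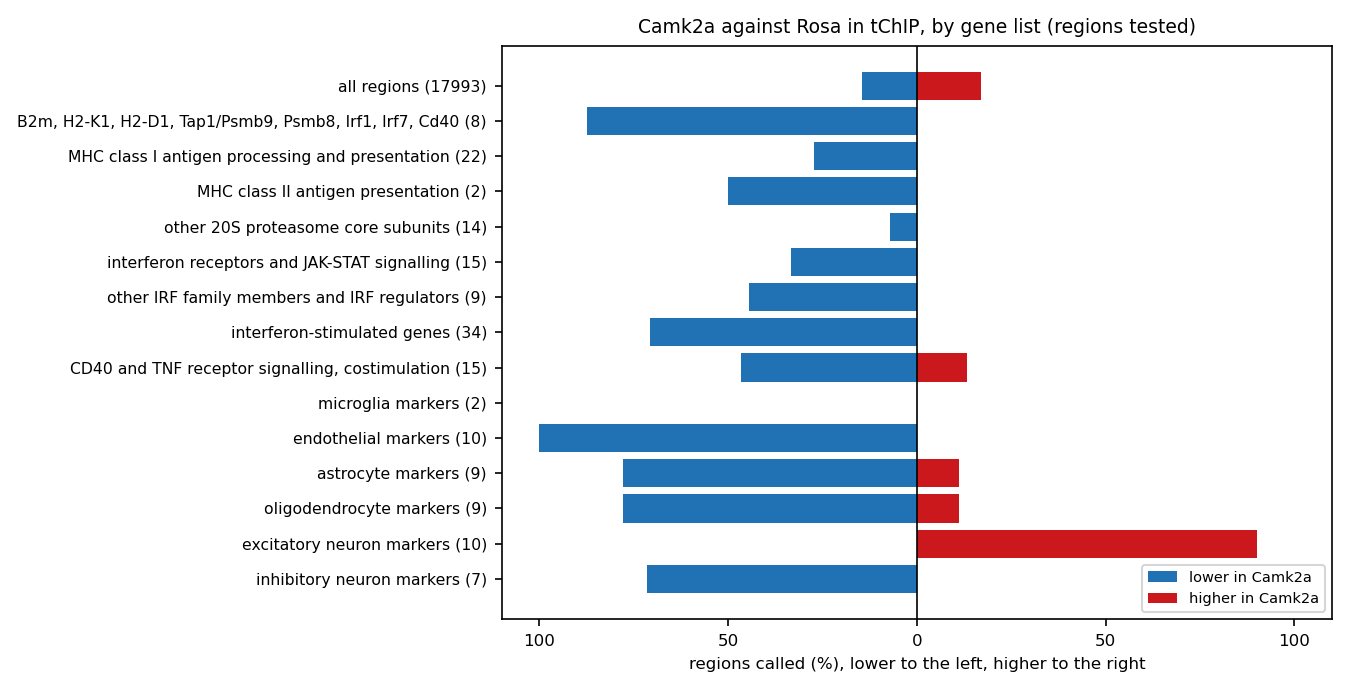
Share of regions called (horizontal axis, percent) lower (left) or higher (right) in Camk2a than in Rosa tChIP-Seq, for all 17993 regions, the 8 regions of the 9 genes, the pathway lists and the cell type marker lists (vertical axis, number of regions in parentheses). The 8 regions, the interferon-stimulated genes and the endothelial, astrocyte, oligodendrocyte and inhibitory neuron markers extend mainly to the left, and the excitatory neuron markers to the right.

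Regions of cell type markers also differed between the lines in tChIP-Seq, in both directions. Of 10 regions of excitatory neuron markers, 9 were called higher in Camk2a tChIP-Seq and none lower (summed level 567 to 603 CPM in the Rosa and 1153 to 1229 CPM in the Camk2a libraries), which matches the label of the line. All 10 regions of endothelial markers were called lower, with a summed level of 402 to 407 CPM in Rosa and 108 to 118 CPM in Camk2a tChIP-Seq. Astrocyte markers had 7 of 9 regions called lower and 1 higher (562 to 614 and 365 to 373 CPM), oligodendrocyte markers 7 of 9 lower and 1 higher (435 to 470 and 281 to 302 CPM) and inhibitory neuron markers 5 of 7 lower (172 to 194 and 99.8 to 103.7 CPM). The summed level of the 8 regions was 395 to 408 CPM in Rosa and 244 to 286 CPM in Camk2a tChIP-Seq. In single ChIP-Seq the endothelial sum was 303 to 323 CPM in Rosa and 318 to 322 CPM in Camk2a, with no region called. Oligodendrocyte markers did differ between the lines there, with 3 of 9 regions called lower in Camk2a, beside 1.22% of all regions. Their sums in single ChIP-Seq were 576 to 593 CPM in Rosa and 527 to 538 CPM in Camk2a. Between the assays in the Rosa line, 24.7% of all regions were called higher in tChIP-Seq and 22.5% lower. Endothelial markers had 5 of 10 regions called higher there and astrocyte markers 7 of 9 higher and 1 lower. In the other direction, 5 of 9 oligodendrocyte regions and 8 of 10 excitatory neuron regions were called lower and none higher. Of the 7 inhibitory neuron regions, 3 were called higher and none lower. The part of cell type markers in the differences of the 9 genes was not tested. Microglia could not be read in the same way: 14 of 16 markers, among them *Cx3cr1*, *Csf1r*, *Aif1*, *P2ry12* and *Tmem119*, had no region.

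Regions near the 9 genes were called in both directions in Camk2a against Rosa tChIP-Seq. Over all regions, 14.6% were called lower and 17% higher in this comparison. Between *H2-K1* and *H2-D1* lay 46 other regions, of which 10 were called lower and 3 higher in Camk2a tChIP-Seq, with a median log2 fold change of -0.14. Within 500 kb of *B2m*, 1 of 16 other regions was called lower and 2 higher, and within 500 kb of *Irf7*, 7 of 41 were lower and 4 higher. The values for *Irf1* were 4 lower and 3 higher of 18, and for *Cd40* 4 lower and 5 higher of 24.

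Across the 12 libraries, log2 CPM of the members did not share a single pattern. *Psmb8* was most like *Irf7* (Pearson's r = 0.90), and the shared *Tap1* and *Psmb9* region was like *Irf1* (0.85) and *Psmb8* (0.84), whereas *B2m* was unlike *Psmb8* (-0.08) and *Irf7* (-0.01), and *H2-K1* and *H2-D1* had r = 0.30. Among 12860 other TSS regions with at least 300 counts, those most like *B2m* were the region of *Lpar6* and *Rb1* (r = 0.967), *Tsc22d3* (0.964) and *Il33* (0.960). Most like *Tap1* and *Psmb9* were *Erbb2* (0.971), the region of *1110050K14Rik* and *Foxf1a* (0.970) and *Smarcd3* (0.964). Most like *Psmb8* were *Ubtf* (0.974), *Ntn1* (0.971) and *Gm8835* (0.962), and most like *H2-K1* were *Pde1c* (0.961), *Dock5* (0.921) and *Plekhh2* (0.916). For *Irf1* they were *Ubash3b* (0.949), *Tex264* (0.943) and *Ccdc125* (0.942), for *Irf7* *Amdhd1* (0.951), *Atad2* (0.948) and the region of *AC161366.1* and *Igdcc3* (0.947), and for *H2-D1* *Abcc4* (0.871), *Dlg5* (0.870) and *Ccdc46* (0.866). These r describe 12 libraries of 4 groups, share library scaling, and were picked as the highest of many.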

How the data were processed

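Per the labels, H3K4me3 ChIP-Seq was done on cerebral cortex. The authors sequenced single-end reads on an Illumina HiSeq, trimmed them with the FASTX Toolkit, removed reads from repeats with Bowtie2 2.1.0, mapped the rest to mm9 with Bowtie 1.0.0, discarded duplicates (SAMtools), and counted reads within MACS peaks using bedtools 2.17.0 (versions from the submitters' processing notes). They deposited raw counts per region for 12 libraries, on the same 17993 regions. The 12 input and FLAG libraries were not analysed here. How the removal of repeats and duplicates affected these regions was not tested.

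Pairs of groups were fitted on their 6 libraries alone, and the interaction on 12, in edgeR 4.0.16 in R 4.3.3 (TMM, glmQLFit, glmQLFTest), without a filter or covariate. Benjamini-Hochberg adjustment ran over all 17993 regions, and an adjusted p under 0.01 was called. SE was obtained from the log2 fold change and its F statistic (the ratio of the former to the root of the latter), and 95% intervals are 1.96 SE. CPM used TMM factors over 12 libraries. On simulated counts, 96% of 200 regions changed by 1 and 56% changed by 0.5 on the log2 scale were recovered between the lines in tChIP-Seq. Only these 200 of 17993 regions were changed, far fewer than were called in the data. These shares therefore do not give the recovery in the data. Alternatives were DESeq2 1.42.0, other scalings, filters, thresholds, thinning, a replicate block, other member rules and leaving out each library. Members, lists and tests were chosen with earlier results of these data known. Named genes are all members, and per list up to 4 called genes without overlap between groups and with the largest change in tChIP-Seq, otherwise the 2 with most counts. Genes named as having no region were picked for being well known. Some genes that the rule selects are not reported here.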

Additional observations from a re-analysis of the deposited data

Results flagged for a closer look

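At 4 of the 8 regions, the difference between the Camk2a and Rosa lines itself differed between tChIP-Seq and single ChIP-Seq, by the interaction of line and assay in edgeR with Benjamini-Hochberg adjustment over all regions. Over all regions, 13.2% were called in the same direction and 26.9% in either. In tChIP-Seq, 23.6% of all regions were lower in Camk2a without overlap. The difference in log2 fold change was -0.68 for *H2-K1*, -0.66 for *Tap1* and *Psmb9*, -0.50 for *B2m* and -0.43 for *Irf1*, and the regions were lower in Camk2a in all 3 libraries of tChIP-Seq than in any of the 3 Rosa libraries. For *H2-K1* and *B2m* the call was lost without Rosa tChIP replicate 1 (adjusted p = 0.0289 and 0.0185), and for *B2m* also without Camk2a single replicate 3 (adjusted p = 0.0347). The *Irf1* call was lost in 6 of the 12 fits that left out a library, with adjusted p from 0.0104 to 0.0371: those without Rosa single replicate 1 or 3, Rosa tChIP replicate 2 or 3, Camk2a single replicate 3 or Camk2a tChIP replicate 2. The interaction of *Tap1* and *Psmb9* was called in all of them. The Wald test of DESeq2 kept the calls of *B2m* and of *Tap1* and *Psmb9*, and lost those of *H2-K1* and *Irf1*. Groups of 3 libraries were too small for a test of single outlying libraries.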

How the results depend on the processing

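Of 7 member regions called lower in Camk2a tChIP-Seq, 4 were called by the Wald test of DESeq2, which lost *H2-K1* (adjusted p = 0.0199), *Irf7* (0.0104) and *Cd40* (0.0215). That test called 10.6% of all regions lower. Leaving out a library gave 6 to 7 members, beside 2229 to 2497 of 17993 regions lower. The filter of 10 counts gave 6 of 7 tested, beside 2100 of 15279 regions. Dropping the lowest 40% of regions by total count gave 5 of 6, beside 1257 of 10796. No alternative called a member between the lines in single ChIP-Seq. In Rosa, tChIP-Seq against single ChIP-Seq, 4 to 5 members were called higher without a library, library totals alone added *Irf1*, and the 40% filter added *Irf1* and *H2-D1* without testing all 8. Beside these, 3616 to 4280 of 17993 regions were called higher without a library. The share was 29.4% with library totals alone, and the 40% filter called 1896 of 10796 higher. In Camk2a, 1 to 3 were lower and 0 to 1 higher without a library, beside 3421 to 3634 and 4025 to 4194 of 17993 regions. There DESeq2 called 1 lower and 0 higher, beside 13.4% and 17.5% of all regions. The 40% filter called 1 and 0 of 4 tested, beside 2015 and 2567 of 10796. The 10-count filter called 1 lower, beside 3590 of 16042, and an adjusted p under 0.05 gave 4 lower, beside 5165 of 17993. In the interaction, 2 to 5 were lower without a library, beside 2110 to 2281 of 17993 regions. DESeq2, which lost *H2-K1* and *Irf1*, called 2 lower, beside 10.7% of all regions. At 0.05 there were 7, beside 3111 of 17993 regions lower. Library totals alone, which added *Irf7* and *Psmb8*, gave 6, beside 16.5% of all regions. Over all regions, the 40% filter left 3365, 104, 3665, 4582 and 2841 calls in tChIP-Seq, single ChIP-Seq, Rosa, Camk2a and the interaction. Without a library the calls ran from 4834 to 5303, 118 to 296, 6862 to 8139, 7455 to 7828 and 4272 to 4660. In single ChIP-Seq, the count of 386 became 1191 at 0.05, 251 with library totals, 34 with DESeq2 and 23 after thinning to tChIP totals, and in Camk2a DESeq2 gave 5563. Causes were not tested; filters test fewer regions and left-out libraries fewer samples.

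Reversals of sign occurred only at uncalled values near 0. In single ChIP-Seq these were *H2-D1* (0.00688 with library totals, 0.0140 with the 40% filter, 0.07 thinned, and -0.0715 to 0.0437 without a library), *Irf7* (0.0562 thinned) and *B2m* (-0.164 to 0.0152 without a library). Between assays they were *B2m* in Rosa (0.00434 with library totals, 0.0528 with the 40% filter) and *Tap1* and *Psmb9* in Camk2a (0.0302 with the 40% filter, -0.134 to 0.0453 without a library). Replicate numbers did not pair libraries (r of deviations -0.02 to 0.03). With a replicate block, 7 members were still lower in tChIP-Seq, and 5468, 433, 8473, 8516 and 4864 regions were called in the 5 comparisons, with no change of a member call. Regions within 1000 bp of a TSS, or protein coding TSSs alone, gave the same 8 regions.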
